A study of Arabidopsis thaliana with 2 samples.

Results

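UDP-glycosyltransferases (UGTs) of Arabidopsis were followed in dissected leaf margins, where 50 genes of this family had a probe set of their own among the 13356 genes measured. Members were taken by name, as nuclear genes with a UGT family symbol or a RefSeq entry that calls them a UDP-glucosyl transferase or UDP-glycosyltransferase, with *UF3GT* added. The same naming rule found 62 genes in RefSeq, and the other 12 were not analysed here. No signal was used to choose a member.

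RNA came from a single group, the outer edge cut with scissors from older leaves of *35S:miR319a/35S:amiR-NGA* plants in the Ler ecotype, with 2 biological replicates on 1 Affymetrix ATH1 array each. In these plants the constitutive 35S promoter drives miR319a, which targets the CIN-TCP genes, and an artificial microRNA against the 4 *NGA* genes, and the leaf margins keep growing. The labels give a cycle of 16 h light and 8 h dark at 23°C and mature leaves, without the genotype, which was taken from the study's methods. Those methods state short days and a lower temperature for leaf analyses, without saying whether this covers the arrays. Neither source gives the number of plants behind a replicate or whether they came from 1 transgenic line. No wild-type margin, single transgenic line or other tissue was analysed, so the effect of the transgenes was not tested and the text holds no p-value.

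UGTs move a sugar from a UDP-activated donor onto a small acceptor such as a flavonoid, a hormone, a lignin precursor or a sterol. The sugar makes the acceptor more soluble and often inactive or ready for the vacuole, and β-glucosidases can remove it again. Plant UGTs are numbered by sequence family, and neighbouring copies of 1 family often lie side by side on a chromosome. In leaves they are best known for the flavonol glycosides of the epidermis and for storing hormones as conjugates.

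Signals are MAS5 intensities, a linear value for each probe set, and both arrays had a median of 50. The background bound of an array was the 95th percentile of 6 genes of pollen, anther and root hairs, and it was 7.21 in replicate 1 and 18.3 in replicate 2. Probe sets differ in brightness, so signals of different genes are given side by side without ranking transcripts. Of 9 leaf genes planned as a check of the tissue, 8 were measured, and all of these were above the bound in both arrays, from *LHCB4.1* at 2105 and 3713 to *FMA* at 39.1 and 34.1. The *NGA* targets were above it in both arrays for 3 of 4 genes, *NGA2* at 98.7 and 92.6, *NGA1* at 29.5 and 21.5 and *NGA4* at 11.2 and 23.2, and *NGA3* was above it in replicate 1 alone (28.7 and 5.14). All 6 pairs of control probe sets had a higher ratio of 3′ to 5′ signal in replicate 2, with the actin pairs at 8.10 and 1.70 in replicate 1 and at 14.3 and 3.93 in replicate 2, and the smallest gap was 1.496 against 1.499 for GAPDH.

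Of the 50 genes of the family 25 were above background. Under each bound tried 12 of the 50 stayed so, against 37% of all genes. Those with a listed role were *UGT78D1*, *UGT78D2* and *UF3GT* for flavonoids, *UGT74D1* for auxin, *UGT76C2* for cytokinin and both sterol genes. The others, *UGT88A1*, *UGT71B1*, *UGT71C4*, *UGT85A2* and *UGT85A5*, had no listed role. The 25 genes made up 50% of the family, against 60.1% of all 13356 genes. A further 8 exceeded the bound in replicate 1 alone, 0 in replicate 2 alone, and 17 in neither array. Among all 13356 genes these counts were 1358, 139 and 3828, with a higher bound in replicate 2. The median signal of the UGT genes was 13.7 in replicate 1 and 18.2 in replicate 2, and that of all genes was 33.2 and 36.7. Mean signals of the family ran from 0.462 for *UGT73C1* to 432 for *UGT78D1*, with quartiles of 4.02 and 69.9. Margins hold several cell types, and in such bulk RNA fewer cells of a type and less transcript per cell cannot be told apart.

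**Figure D1:**
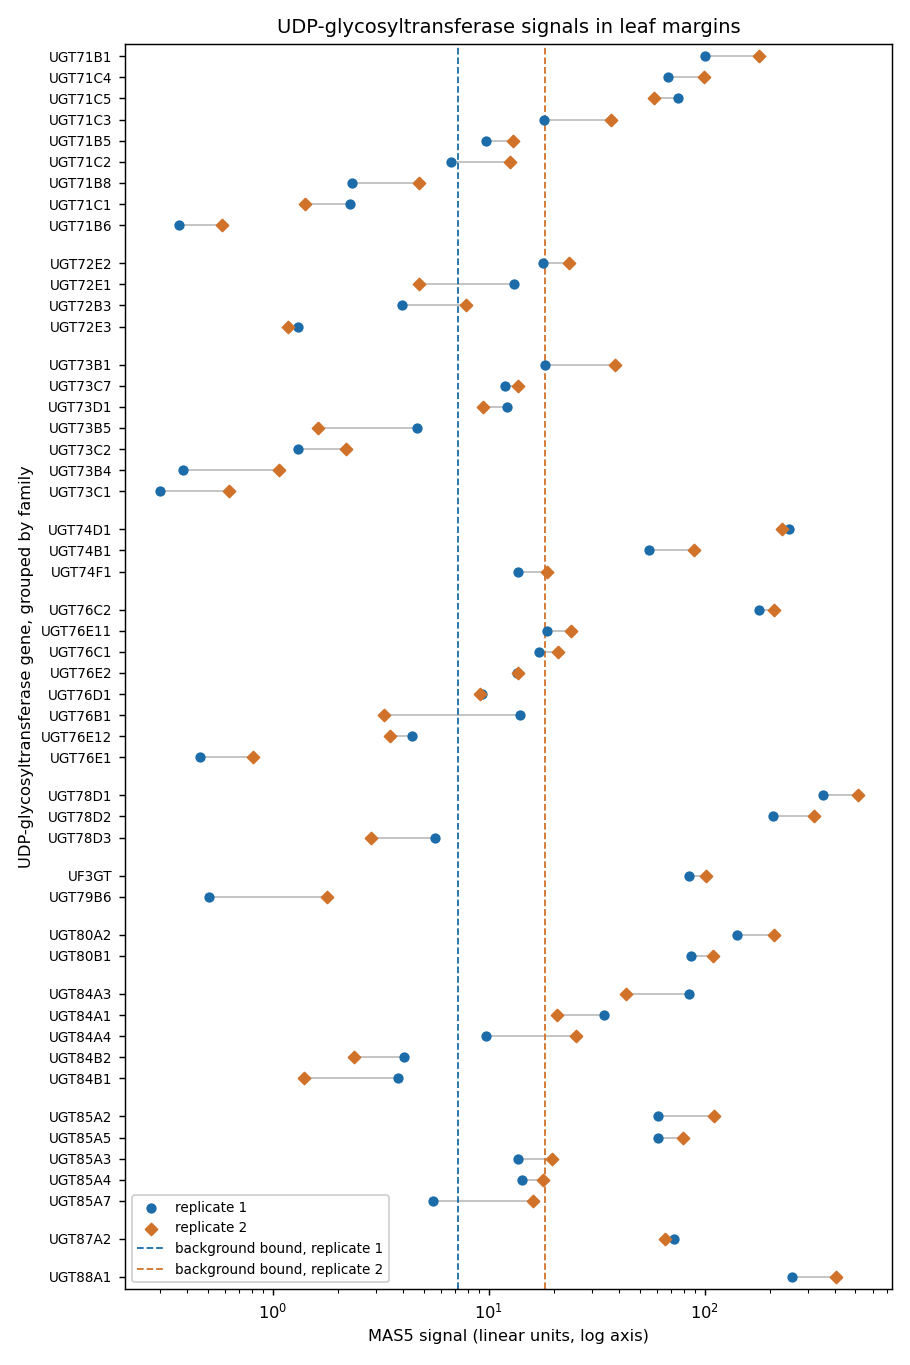
MAS5 signal of each of the 50 UDP-glycosyltransferase genes on a log axis, 1 row per gene in blocks by family, with circles for replicate 1 and diamonds for replicate 2, and dashed lines for the background bound of each array (7.21 and 18.3). The 25 genes above background in both arrays have each point to the right of the line of its own colour, and *UGT78D1* has the rightmost points at 353 and 512.

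Flavonoid conjugation was represented by 5 measured genes of 10 listed, and 3 of them were above the bound in both arrays. *UGT78D1*, which adds rhamnose to the 3 position of flavonols, had a signal of 353 in replicate 1 and 512 in replicate 2, a mean of 432 ± 112 (SD, n = 2 arrays). *UGT78D2*, the 3-O-glucosyltransferase of flavonols and anthocyanidins, was at 208 and 321, a mean of 265 ± 80.4. *UF3GT*, or UGT79B1, which adds xylose to the glucose of anthocyanins, was at 85 and 102. Besides the bound used here 7 others were tried, and these 3 genes exceeded all 8 of them in both arrays.

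The other flavonoid genes were below the bound in both arrays. *UGT78D3*, the flavonol arabinosyltransferase, was at 5.64 in replicate 1 and 2.86 in replicate 2, and is separated from *UGT78D2* by 1 gene. *UGT79B6* (AT5G54010), which lengthens flavonol glycosides in pollen and tapetum, was at 0.506 and 1.78. Neither exceeded any of the 8 bounds in both arrays. Of 29 planned genes of flavonoid and phenylpropanoid synthesis only 3 had a probe set of their own. *DFR*, which makes the precursors of anthocyanins, was at 177 and 124, and the anthocyanin malonyltransferase gene *AT5MAT* was at 25.9 and 29.2, above the bound in both arrays. *BAN*, which diverts anthocyanidins to the tannins of the seed coat, was at 1.04 and 1.39, below it in both.

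Genes for phenylpropanoid esters and monolignol glucosides were measured for 7 of 9 listed, and 4 were above the bound in both arrays. *UGT84A1*, *UGT84A3* and *UGT84A4*, direct neighbours that form glucose esters of hydroxycinnamates, were all above it and did not move together between the arrays. *UGT84A3* was at 85 in replicate 1 and 43.4 in replicate 2, and *UGT84A1* was at 34.2 and 20.6. *UGT84A4* was at 9.70 and 25.4, the other way round, with a log2 ratio of replicate 2 over replicate 1 of 1.39. Its signals were close to the bound, 1.35 times that of replicate 1 and 1.39 times that of replicate 2. The bound itself was also higher in replicate 2, and whether this gene differs from its neighbours was not tested. These directions were the same after quantile normalization. *UGT72E2*, which glucosylates coniferyl and sinapyl alcohols, was at 17.8 and 23.5. Its relative *UGT72E1*, which acts on coniferyl aldehyde, was above the bound in replicate 1 alone at 13.2, with 4.76 in replicate 2. *UGT72E3*, another monolignol glucosyltransferase, was below the bound in both arrays at 1.30 and 1.18, and *UGT72B3* was too at 3.95 and 7.86. None of the 7 genes exceeded the bounds from the median of all probe sets, the longer reference list or the *B. subtilis* controls in both arrays.

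Of the 3 measured auxin genes 1 was above the bound in both arrays, beside 60.1% of all genes. *UGT74D1*, which glucosylates indole-3-acetic acid and its oxidized form, was at 246 in replicate 1 and 228 in replicate 2, a mean of 237 ± 12.8, and the ratio of the larger to the smaller signal was 1.08. *UGT84B1*, which forms the glucose ester of indole-3-acetic acid, was at 3.81 and 1.40, and its direct neighbour *UGT84B2* was at 4.07 and 2.37. These neighbours were below the bound in both arrays. The other 2 listed auxin genes were not analysed.

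Of 3 measured cytokinin genes of 5 listed, 2 were above the bound in both arrays, beside 60.1% of all genes. These were the N-glucosylation genes *UGT76C1* and *UGT76C2*, which are direct neighbours. *UGT76C2* was at 179 and 211, a mean of 195 ± 22.4, and exceeded all 8 bounds. *UGT76C1* was at 17.1 and 21.0, close to the bound of replicate 2, and exceeded 5 of the 8 in both arrays. *UGT73C1*, whose enzyme can attach glucose to the side chain of cytokinins, was at 0.300 and 0.624, below the bound in both arrays. The listed cytokinin genes *UGT73C5* and *UGT85A1* were not measured. Of 24 planned genes of cytokinin synthesis, breakdown and response, 2 were measured and both were above the bound. These are genes of response regulators of the type that cytokinin induces, *RR16* at 248 in replicate 1 and 132 in replicate 2, and *ARR15* at 76.1 and 50.2.

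Among 3 measured genes of 4 listed for conjugation of abscisic acid, 1 was above background, beside 60.1% of all genes. *UGT71C5*, which forms the abscisic acid glucose ester, was at 75.5 and 58.5. *UGT71B6*, which glucosylates the same hormone, was at 0.368 and 0.580, and its close relative *UGT71B8* was at 2.33 and 4.77. *BGLU33*, the 1 measured gene of 14 planned for abscisic acid metabolism, was at 33.0 and 21.0, above the bound in both arrays.

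Of 3 measured salicylate genes of 5 listed, 2 passed the bound in both arrays, 1 of them barely, beside 60.1% of all genes. *UGT74F1*, which forms salicylic acid glucoside, was at 13.7 in replicate 1 and 18.5 in replicate 2, against bounds of 7.21 and 18.3, and it exceeded 3 of the 8 bounds in both arrays. *UGT71C3*, which glucosylates methyl salicylate, was at 18.0 and 36.7. *UGT76B1*, which conjugates N-hydroxypipecolic acid, isoleucic acid and salicylic acid, was at 13.9 and 3.26 and passed the bound in replicate 1 alone, so the gap between the arrays includes a signal below background. Of 13 planned partner genes, AT5G52810 was above the bound in both arrays at 58.8 and 38.6, and *BSMT1*, the methyltransferase that makes methyl salicylate, in replicate 1 alone at 15.3 and 8.46.

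The 1 measured UGT gene of glucosinolate synthesis and both sterol genes exceeded the bound in both arrays, beside 60.1% of all genes. *UGT74B1*, which transfers glucose to the sulphur of thiohydroximates in glucosinolate synthesis, was at 55.6 and 89.8, a mean of 72.7 ± 24.2, and exceeded 7 of the 8 bounds, all but that of the longer reference list. Of 25 planned partner genes 2 were measured, of which *GSTU20* was above the bound in both arrays at 70.3 and 66.5, and *BCAT4*, which starts the extension of methionine side chains, was at 9.37 and 12.2, above it in replicate 1 alone. The sterol glucosyltransferase genes *UGT80A2* (*SGT*) and *UGT80B1*, which is also known as *TRANSPARENT TESTA 15*, were at 141 and 210 and at 86.3 and 110.0 in replicates 1 and 2. Both exceeded all 8 bounds.

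Of the 4 measured genes listed for jasmonate, 1 was above the bound in both arrays, beside 60.1% of all genes. For stress responses it was also 1 of 4. In the UGT76E group, in which UGT76E1 acts on hydroxylated jasmonate, *UGT76E11* was above it in both arrays at 18.6 and 24.1. *UGT76E2* was at 13.5 and 13.7, above it in replicate 1 alone, while *UGT76E12* was at 4.4 and 3.48 and *UGT76E1* at 0.462 and 0.807, below it in both. Of 4 measured genes of 6 listed for stress responses, *UGT73B1* was above the bound in both arrays at 18.2 and 38.5. *UGT76D1*, which glucosylates dihydroxybenzoic acids, was at 9.29 and 9.09, above it in replicate 1 alone. *UGT73B4* was at 0.384 and 1.07, and its direct neighbour *UGT73B5*, known from responses to pathogens, was at 4.67 and 1.62.

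A further 15 genes stood in none of these lists, and 7 of them were above the bound in both arrays. *UGT88A1* was at 254 in replicate 1 and 405 in replicate 2, a mean of 329 ± 107, and *UGT71B1* was at 100.5 and 178. *UGT71C4* was at 67.7 and 99.8 and *UGT87A2*, which affects flowering time, at 71.9 and 65.9. The other 3 belong to family UGT85, *UGT85A2* at 60.8 and 110.3, *UGT85A5* at 60.9 and 79.5 and *UGT85A3* at 13.7 and 19.6. Of the remaining 8, *UGT85A4* (14.3 and 17.9), *UGT73C7* (11.9 and 13.7), *UGT71B5* (9.76 and 13.0) and *UGT73D1* (12.2 and 9.37) were above the bound in replicate 1 alone. The last 4, *UGT85A7* (5.50 and 16.1), *UGT71C2* (6.68 and 12.6), *UGT71C1* (2.28 and 1.40) and *UGT73C2* (1.31 and 2.19), were above it in neither array.

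By sequence family the members fell into 12 groups of 1 to 9 genes, too few to set one family against another, and the counts are a description beside the 60.1% of all genes. In UGT74, which conjugates hormones and glucosinolate precursors, 3 of 3 measured genes passed the bound in both arrays, *UGT74F1* barely. The listed genes *UGT74C1*, *UGT74E2* and *UGT74F2* were not measured. In UGT80 2 of 2 passed. UGT84 and UGT85 had 3 of 5 each and UGT78 had 2 of 3. In UGT71 there were 4 of 9, in UGT76 3 of 8, in UGT79 1 of 2 and in UGT72 1 of 4. UGT73, whose members act on brassinosteroids, flavonoids and foreign compounds and respond to stress, had 1 of 7 measured genes, namely *UGT73B1*. The listed genes *UGT73C5*, *UGT73C6*, *UGT73B2* and *UGT73B3* of this family were not measured, so the count does not cover each of these functions. The single genes of UGT87 and UGT88 were both above the bound in both arrays.

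**Figure D2:**
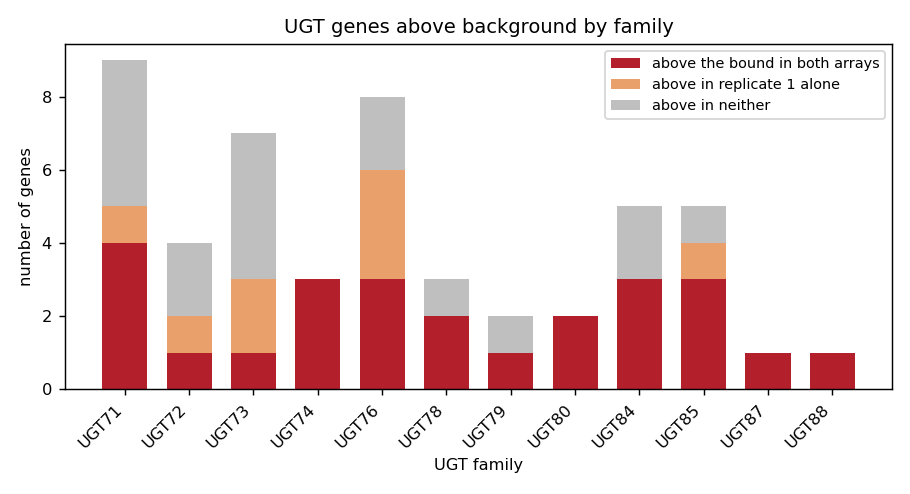
Number of UDP-glycosyltransferase genes by sequence family (x axis) and by their place relative to the background bound (stacked colours from the bottom: above in both arrays, in replicate 1 alone, in neither). UGT74 and UGT80 have 3 of 3 and 2 of 2 measured genes above the bound in both arrays, and UGT73 has 1 of 7.

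Neighbouring copies stood on the same side of the bound in some clusters and on both sides in others. In the gene order of RefSeq, 31 members lay in 13 clusters with at most 5 other genes between neighbours, each cluster of 1 family. Of these, 14 were above the bound in both arrays, and so were 11 of the 19 members that lay alone, beside 60.1% of all genes. In 3 clusters all members were above it (*UGT71C3* with *UGT71C4* and *UGT71C5*, the *UGT84A* genes, and the *UGT76C* genes), in 6 none, and in 4 the members stood on both sides. The mixed clusters were *UGT78D2* with *UGT78D3*, *UGT76E11* with *UGT76E12*, *UGT71B1* with *UGT71B6* and *UGT71B8*, and the 4 *UGT85A* genes, of which *UGT85A7* was below. Each of the 50 members was measured by 1 probe set without a mark for shared probes, and cross-hybridization between close copies was not tested.

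The arrays gave similar signals for this family. Across the 50 genes, which do not stand for replicates, Pearson's r between the log2 signals was 0.950 and Spearman's rho 0.956, and across all genes they were 0.927 and 0.949. The signal was higher in replicate 2 for 34 of the 50 genes (68%), against 64.2% of all genes, and the log2 ratio of replicate 2 over replicate 1 had a median of 0.39, against 0.28 for all genes. After quantile normalization, which makes the distributions of the arrays equal, 26 of the 50 genes had more signal in replicate 2, with a median of 0.0511, against 0.0711 for all genes. Among the 25 members above the bound in both arrays, 20 had more signal in replicate 2 as deposited, and 19 (76%) after quantile normalization, against 55.8% of all genes above it in both, with medians of 0.37 and 0.0829. The ratio of 3′ to 5′ signal was also higher in replicate 2, and its part in these shifts was not tested.

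More than 2-fold between the arrays separated 12 UGT genes (24%), against 27.7% of all genes. Replicate 2 was more than 2-fold higher for 8 of the 50 family members, against 20.8% of all genes. Replicate 1 was so for 4 of the 50, against 6.88% of all genes. Among the 25 members above the bound in both arrays 3 passed 2-fold, against 11.3% of all genes above it in both. These were *UGT84A4*, *UGT73B1* at a ratio of 2.12 and *UGT71C3* at 2.03, each higher in replicate 2, and *UGT84A3* followed at 1.96 with replicate 1 higher. After quantile normalization 1 of the 3 stayed past 2-fold, *UGT84A4*, and only barely, at a log2 ratio of 1.001. *UGT73B1* had a log2 ratio of 0.89 and *UGT71C3* one of 0.83. In family UGT84, 4 of 5 genes were higher in replicate 1, against 4779 of all 13356 genes as deposited. The same 4 were higher after quantile normalization, against 6153 of all 13356 genes. Of the 4, *UGT84B1* and *UGT84B2* were below the bound in both arrays. In family UGT85 all 5 were higher in replicate 2, against 64.2% of all genes, and 4 after quantile normalization, against 53.9%. Of these genes *UGT85A4* and *UGT85A7* were not above the bound in both arrays.

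**Figure D3:**
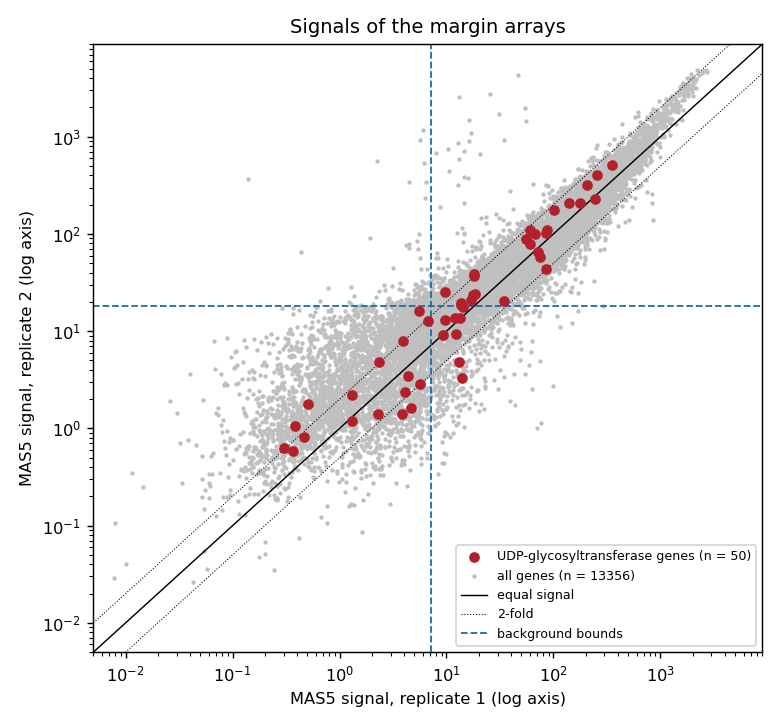
MAS5 signal in replicate 1 (x axis) and replicate 2 (y axis), both log axes, for the 50 UDP-glycosyltransferase genes (large points) and all 13356 genes (small grey points), with lines of equal signal and of 2-fold and dashed background bounds. The family lies inside the cloud of all genes, and its 12 genes outside the 2-fold lines are mostly at low signals, 3 of them above both bounds.

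The count of members above background moved with the bound, while the family stayed under the share of all genes with each bound tried. The bounds are cutoffs on the same genes and arrays, and the family had the lower median signal. Their agreement is therefore no separate evidence. It ran from 35 of 50 genes with a bound from the pollen and anther genes alone (70%, against 77.8% of all genes) to 13 with the *B. subtilis* control probe sets (26%, against 38.5%). With the median of all probe sets it was 15 (30%, against 41.6%) and with a longer list of reference genes 14 (28%, against 40.6%). Smaller changes gave 26 genes with the 90th percentile of the 6 reference genes (52%, against 62.5%), 23 with the highest reference gene (46%, against 58.4%) and 23 with the root hair genes alone (46%, against 58.8%). In all 8 settings 12 members were above background (24%), against 37% of all genes. They were *UGT78D1*, *UGT78D2*, *UF3GT*, *UGT88A1*, *UGT74D1*, *UGT76C2*, *UGT80A2*, *UGT80B1*, *UGT71B1*, *UGT71C4*, *UGT85A2* and *UGT85A5*. No setting placed 15 members above background, among them *UGT76B1*, *UGT78D3*, *UGT84B1*, *UGT84B2* and *UGT71B6*. Near the bound itself, *UGT74F1* and *UGT85A3* (19.6 against 18.3 in replicate 2) lay just inside, and *UGT85A4* (17.9 against 18.3) and *UGT85A7* just outside.

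**Figure D4:**
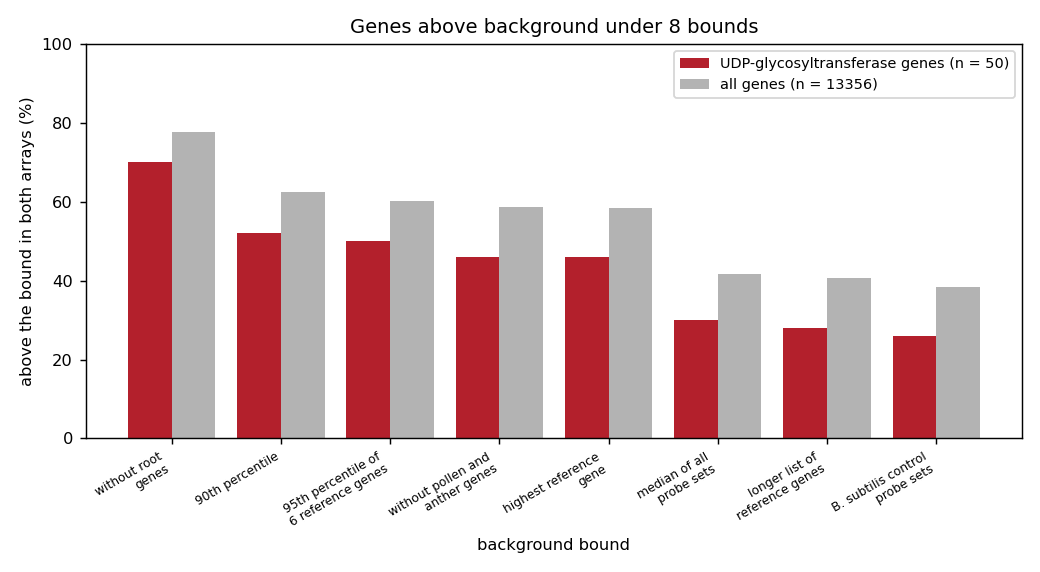
Share of genes above background in both arrays (y axis, percent from 0) under 8 background bounds (x axis), with red bars for the 50 UDP-glycosyltransferase genes and grey bars for all 13356 genes. The red bar is the shorter of each pair, between 70% against 77.8% without the root genes and 26% against 38.5% with the *B. subtilis* controls.

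The partners of these enzymes could be followed only in part. The β-glucosidases, which can take glucose off again, were measured for 20 of 40 genes of the BGLU series, and 8 (40%) passed the bound in both arrays, against 60.1% of all genes. The highest mean signals were those of *BGLU44* at 429 in replicate 1 and 486 in replicate 2, and of *BGLU40* at 274 and 106. The lowest were those of *BGLU19* at 0.656 and 1.48 and *BGLU32* at 1.48 and 3.27. *BGLU15*, whose enzyme hydrolyses flavonol glycosides, was above the bound at 81.7 and 104, and *BGLU45* and *BGLU46*, which act on monolignol glucosides, were below it in both arrays at 6.28 and 13.3 and at 3.20 and 8.67. *BGLU28*, known from sulphur starvation, was at 63.2 and 7.93. On the side of the sugar donors, 1 of 31 planned genes was measured, *USP*, which makes UDP-sugars from sugar phosphates, at 213 and 159.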

How the data were processed

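Margins of leaves were measured on 2 ATH1 arrays. The authors obtained and normalized the deposited intensity values with MAS5, 1 linear signal per probe set, scaled to a median of 50 in each array. R 2.7.2 is named in the submitters' processing notes. The table used here holds no detection calls, and the precision is limited by the number of arrays.

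Of 22810 probe sets, 13513 had 1 gene in the platform annotation, 503 several and 8794 none. Each gene was represented by its probe set of highest mean signal, and names were taken from RefSeq TAIR10.1. The bound of an array was the 95th percentile of the pollen genes *ANX1*, *ANX2* and *MGH3*, the anther gene AT5G07230 and the root hair genes *EXPA18* and *EXPA7*, and a gene was above background where it exceeded the bound in both arrays. Log2 ratios had no pseudocount. Means ± SD are over 2 arrays, and no test was run.

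Members and gene lists were chosen with earlier results of these data known. All members could be named, with values in both arrays for those of the role lists, of highest mean signal, of largest ratio between the arrays and nearest the bound, and of partner lists the 2 highest and 2 lowest mean signals. *BGLU15*, *BGLU28*, *BGLU45*, *BGLU46* and the other members were added after their values were seen. Alternatives were other bounds and reference genes, quantile normalization, other probe sets of a gene, a pseudocount of 16, a floor and single arrays. Counts and ratios were checked on simulated data. Sequences were not used here. Computation used Python 3.11.15 with pandas 2.3.3, numpy 2.4.6 and scipy 1.17.1, and figures matplotlib 3.10.9.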

Additional observations from a re-analysis of the deposited data

How the results depend on the processing

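The 25 UGT genes above background became 15 where the bound was the probe sets' median, 14 with the longer list of reference genes and 13 with the *B. subtilis* control probe sets, and ranged from 25 to 33 in single arrays. Each of these 3 bounds reaches the array median of 50 in at least 1 array, so a gene under them need not be at background. With them the phenylpropanoid, salicylate, jasmonate and stress lists had 0 genes above the bound and the cytokinin list 1. The abscisic acid list had 0 with the *B. subtilis* controls, and the glucosinolate list 0 with the longer list. The salicylate list had 1 with the highest reference gene or without the pollen and anther genes, and the jasmonate and stress lists had 2 each without the root genes. In single arrays the jasmonate and stress lists ranged from 1 to 2. The 15 partner genes above background became 24 without the root genes and 9 with the *B. subtilis* controls. The flavonoid partners numbered 1 with those 3 bounds, the cytokinin partners 1 with the *B. subtilis* controls, the abscisic acid and salicylate partners 0 with those 3 bounds and the glucosinolate partners 0 with the *B. subtilis* controls. Without the root genes the salicylate and glucosinolate partners numbered 2 each and the β-glucosidases 15, and in single arrays the salicylate and glucosinolate partners ranged from 1 to 2. The median log2 ratio of the arrays over UGT genes was 0.05 after quantile normalization (0.0511) and 0 with low signals raised to the higher of the bounds. The median log2 signal, 3.98, was 5.0 with a pseudocount of 16, 6.12 over the genes above the bound alone, by construction, and from 3.78 to 4.19 in single arrays. The 12 genes past 2-fold became 0 with the pseudocount, 2 with the floor and 3 among genes above the bound. The cause of the other moves was not tested. After quantile normalization the 12 became 8, and the 3 past 2-fold among genes above the bound became 1. The lowest or plain probe sets could not change a UGT count, since each member has 1 plain probe set, and quantile normalization keeps the order within an array, so its counts above background test little. The 90th percentile gave 26 genes. No paired analysis was possible because there is 1 group. Low signals limit these calls, since the bound rests on 6 genes, and mostly on the highest of them. That was *EXPA18*, at 8.42 in replicate 1 and 20.4 in replicate 2. The next highest were *ANX2* at 3.60 in replicate 1 and *EXPA7* at 12.1 in replicate 2.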
